A study of Homo sapiens with 2 samples.

Results

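The subject here is a set of 8 long non-coding RNAs, MALAT1, NEAT1, KCNQ1OT1, MEG3, H19, OIP5-AS1, NORAD and TUG1, followed through 2 libraries. Both libraries were made from MIA PaCa-2, an established cell line grown from a human pancreatic carcinoma. The 8 RNAs were taken by gene symbol, with earlier results of these data known. Each matched exactly 1 of the 58698 genes in the deposited table, which holds 16065 long non-coding RNA genes by the GENCODE release 29 annotation. One library came from cells with a guide RNA against TPST2, a Golgi enzyme that adds sulfate to tyrosines of secreted and membrane proteins; its genotype is labelled TPST2 KD. The other came from cells with a guide against GFP, a jellyfish protein absent from human cells, and its genotype is labelled WT. Each condition was 1 culture and 1 library, so no difference below has a replicate check and no test was made. The labels say neither whether the cells were a clone or a pool nor how the guide acts on its gene, by cutting it or by repressing it. TPST2 stood at 1.92 FPKM in sgTPST2 and 8.46 FPKM in sgGFP (FPKM counts fragments per kilobase, scaled for depth, and is the unit the values were read as). In the authors' deposited table the q-value of TPST2 is above 0.05.

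Long non-coding RNAs are transcribed like messenger RNAs but are not translated into a main protein product, and several act as scaffolds. MALAT1 sits in nuclear speckles, where splicing factors are stored. NEAT1 is the architectural RNA of paraspeckles, which form only where its long isoform is made. KCNQ1OT1, H19 and MEG3 come from imprinted domains, in which only the copy from a given parent is normally active. KCNQ1OT1 silences neighbouring genes in cis, H19 is the host of a microRNA, and MEG3 is lost in many tumours. NORAD binds PUMILIO proteins, repressors of messenger RNAs, and takes part in keeping the chromosome number stable. OIP5-AS1, known as Cyrano in fish and mouse, carries a conserved site for the microRNA miR-7. TUG1 was named for its induction by taurine and is essential for retinal development in mouse. The group is often called nuclear, but NORAD, H19 and OIP5-AS1 are known to be largely cytoplasmic, and these libraries are of whole-cell RNA, so no location was measured.

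MALAT1 and NEAT1 are neighbours on chromosome 11 with similar 3′ ends, shown first because neither end carries an ordinary poly(A) tail and a library of total RNA can hold both. In each gene, RNase P cuts in front of a tRNA-like stretch, and the new end is protected by a triple helix of U-rich and A-rich tracts. The 91 bases before the cut (GENCODE transcripts, GRCh38, plus strand) are printed with those tracts in capitals, for MALAT1 at chr11:65506026-65506116 and for NEAT1 at chr11:65445450-65445540:
MALAT1 end: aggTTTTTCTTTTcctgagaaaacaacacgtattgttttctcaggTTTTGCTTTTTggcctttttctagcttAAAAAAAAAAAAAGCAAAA
NEAT1 end: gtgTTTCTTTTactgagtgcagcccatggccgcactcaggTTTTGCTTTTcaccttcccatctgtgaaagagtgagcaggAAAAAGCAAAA
Both stretches hold the letters AAAAGCAAAA and their reverse complement TTTTGCTTTT. Of 16055 long non-coding RNA genes, 0.162% hold AAAAGCAAAA and 0.0934% hold TTTTGCTTTT in the last 100 bases of the longest transcript. The first motif was taken from NEAT1, as its last 10 bases, so NEAT1 holds that motif there by construction. The annotated NEAT1 is the 1 gene with both there, since the longest MALAT1 transcript runs on for 296 bases past its tRNA-like stretch.

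The tRNA-like RNAs that follow are annotated as separate genes, both with the symbol RF01684. The 57 bases from MALAT1 (chr11:65506117-65506173) and the 58 bases from NEAT1 (chr11:65445541-65445598) have 41 identical aligned bases, and capitals mark shared runs of at least 6 bases:
MALAT1 tRNA-like: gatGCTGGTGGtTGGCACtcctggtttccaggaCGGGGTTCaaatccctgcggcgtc
NEAT1 tRNA-like: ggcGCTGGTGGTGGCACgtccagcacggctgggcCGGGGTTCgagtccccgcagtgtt
The NEAT1 copy begins at the base after the annotated end of NEAT1. Both RF01684 entries are listed at 0 in both libraries. Annotated inside the 8 loci are 22 entries of microRNAs, the tRNA-like RNA and miscellaneous RNA stretches of up to 464 bases. Of these, 20 are listed at 0 in both libraries. The table thus gives little on such entries, and a 0 there is not read as absence.

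NORAD stands out among the 8 in sequence by its PUMILIO response elements. Its 5339-base transcript holds 15 copies of TGTANATA, or 2.81 per kb, spread from position 761 to position 4599, and 1 copy on the opposite strand. Over the longest transcripts of all 16065 long non-coding RNA genes there were 0.101 per kb; 9.57% of them hold at least 1, and 50.2% of the 283 that are 5 kb or longer. By number of copies NORAD ranked 4. The other RNAs of the set had 9 copies in KCNQ1OT1, 6 in NEAT1, 2 in TUG1, 1 each in OIP5-AS1 and MEG3, and 0 in MALAT1 and H19; on the opposite strand KCNQ1OT1 had 15 and NEAT1 7. In NORAD 3 pairs of elements lie with 1 base between them, shown because they bring binding sites side by side (GRCh38, minus strand, elements in capitals), at chr20:36049497-36049525, chr20:36048300-36048328 and chr20:36047664-36047692:
NORAD pair 1: tatctgTGTATATAgTGTACATAaaggac
NORAD pair 2: ctatacTGTATATAtTGTATATAtaacgg
NORAD pair 3: gtgctgTGTATATAgTGTATATAagcgga

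OIP5-AS1 carries the miR-7 site for which it is known, in its longest transcript at positions 2869 to 2894 (chr15:41300574-41300599, GRCh38, plus strand). Of the 24 bases of miR-7-5p (RefSeq, GRCh38.p14, its MIR7-3 copy at chr19:4770700-4770723, plus strand), 23 are complementary to the site. The site has 26 bases, 2 of which have no counterpart in miR-7-5p, and capitals mark the seed (bases 2 to 8) and its match:
miR-7-5p: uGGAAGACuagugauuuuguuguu
OIP5-AS1 site: aacaacaaaatcaccaatGTCTTCCa
The seed match GTCTTCC occurs 3 times in that transcript (0.340 per kb) and 0 times on its opposite strand, against 0.0901 per kb over all long non-coding RNA genes. It also occurs 6 times in KCNQ1OT1 (0.0655 per kb) and 2 times in MEG3 (0.154 per kb), and 0 times in the rest of the set. On the opposite strand KCNQ1OT1 had 9, and MEG3 and NORAD had 3 each. H19 and MEG3 host microRNAs of their own, and their seeds, in capitals, differ from each other and from that of miR-7-5p (RefSeq, GRCh38.p14; miR-675-5p at chr11:1996800-1996822 and miR-675-3p at chr11:1996768-1996787, minus strand, and miR-770-5p at chr14:100852409-100852431, plus strand):
miR-675-5p, from H19: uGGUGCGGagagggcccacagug
miR-675-3p, from H19: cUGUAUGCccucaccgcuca
miR-770-5p, from MEG3: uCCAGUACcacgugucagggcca
The precursor genes MIR675 and MIR770 are listed at 0 in both libraries; mature microRNAs are too short for libraries of this kind.

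None of the 6 RNAs that reached 1 FPKM in either library differed by 1.5-fold between the libraries. A difference is given as log2((sgTPST2 + 1)/(sgGFP + 1)) of FPKM, on which the change of genes near or under 1 FPKM comes out too small, and counts of genes past 1.5-fold are on that scale throughout. Of the 6 RNAs, 0 were 1.5-fold higher or lower, while 11.3% of 13420 genes at 1 FPKM or more were (4.41% higher and 6.94% lower), as were 15.9% of 1400 long non-coding RNA genes (6.71% higher and 9.14% lower). Past 2-fold there were also 0 of the 6, beside 4.54% of all genes (1.61% higher and 2.93% lower) and 5.36% of long non-coding RNA genes (1.93% higher and 3.43% lower). KCNQ1OT1 and MEG3 stayed under 1 FPKM. Differences of the 6 ran from -0.17 to 0.23 with a median of 0.01, beside medians of 0.00 for all genes and 0.01 for long non-coding RNA genes. The authors' deposited table has a test for 7 of the 8, each with q = 0.99965. There, 0.517% of 18574 tested genes, and 0.284% of 3517 tested long non-coding RNA genes, have q at or under 0.05.

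**Figure D1:**
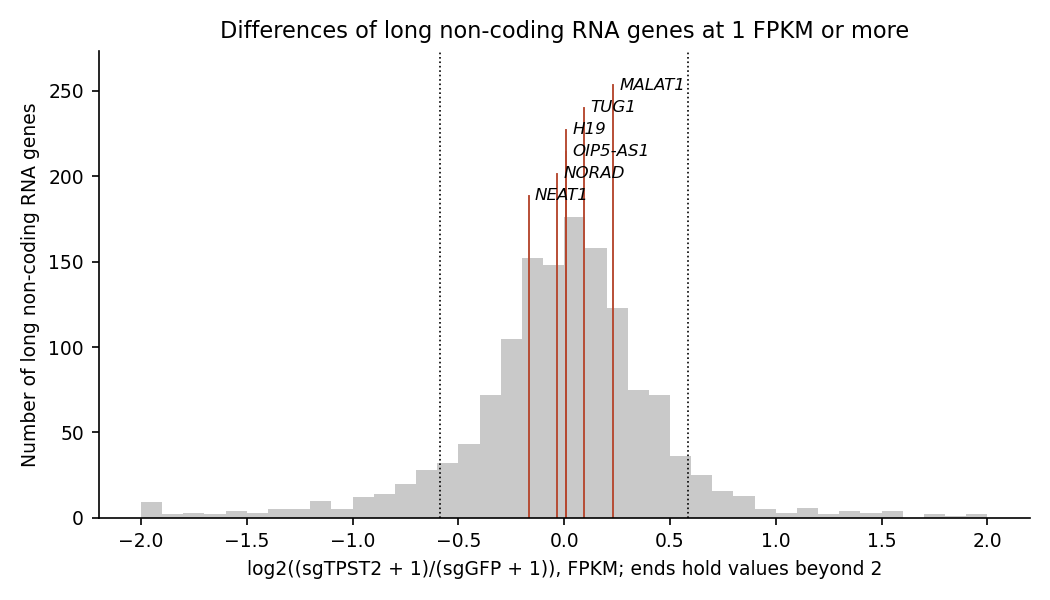
Histogram of log2((sgTPST2 + 1)/(sgGFP + 1)) over 1400 long non-coding RNA genes at 1 FPKM or more; red lines mark the 6 RNAs of the set that reached that level, and dotted lines 1.5-fold. The 6 lines lie between -0.17 and 0.23, inside the dotted lines.

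The order of levels was the same in both libraries. MALAT1 was the highest in each, followed by NORAD, OIP5-AS1, NEAT1, TUG1, H19, KCNQ1OT1 and MEG3. MALAT1 was 9.09 times NORAD in sgTPST2 and 7.55 times NORAD in sgGFP. The closest neighbours were NEAT1 and TUG1, with NEAT1 1.14 times TUG1 in sgTPST2 and 1.38 times TUG1 in sgGFP. Where fragments were counted over the longest transcript, the Poisson 95% interval of each RNA lay clear of that of the next in both libraries, which covers counting error only. Over the shortest transcript, NEAT1 (16.6 to 20.9 FPKM) and TUG1 (13.9 to 19.2 FPKM) overlapped in sgTPST2. KCNQ1OT1 (0.237 to 0.269 FPKM) and MEG3 (0 to 0.312 FPKM) also overlapped in sgGFP. However, that MEG3 interval rests on 0 fragments after rounding, although the MEG3 value is above 0 FPKM. Its shortest transcript therefore cannot decide the order of these RNAs. The replicate spread that would decide whether such an order is stable was not measured.

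**Figure D2:**
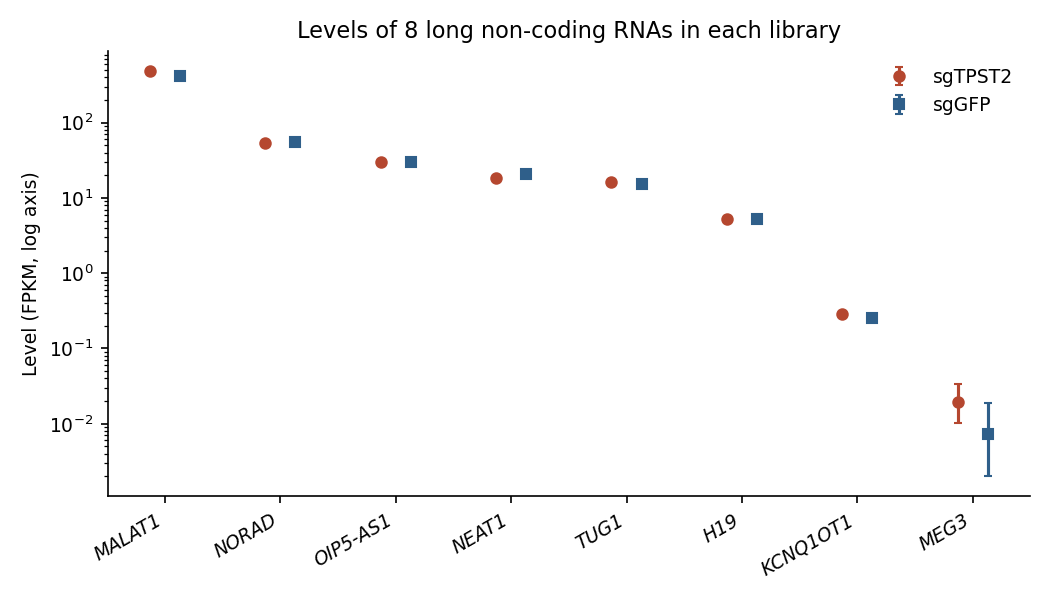
Level of each RNA in FPKM on a log axis, with sgTPST2 (red circles) to the left of sgGFP (blue squares); bars are Poisson 95% intervals for fragments over the longest transcript and are mostly smaller than the symbols. The 2 libraries follow the same order, from MALAT1 at 482 FPKM in sgTPST2 and 411 FPKM in sgGFP to MEG3 at 0.0193 FPKM in sgTPST2 and 0.00741 FPKM in sgGFP.

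MALAT1 (ENSG00000251562.8, chromosome 11, 65497688 to 65506516, plus strand) stood at 482 FPKM in sgTPST2 and at 411 FPKM in sgGFP. That is 1.17-fold higher in sgTPST2, or 0.23 on the log2 scale, and it was the largest difference of the 6 RNAs at 1 FPKM or more. Differences at least this large in either direction were seen in 38.7% of all genes and 48.9% of long non-coding RNA genes at 1 FPKM or more. By FPKM it ranked 5 among long non-coding RNA genes in sgTPST2 and 7 in sgGFP. If all its fragments came from its longest transcript of 8708 bases, about 196810 fragments stand behind the sgTPST2 value and 147289 behind the sgGFP value, and the counting interval of the ratio is 1.17 to 1.18. GENCODE lists 17 transcripts for the gene, the shortest of 132 bases, and Cuffdiff sums over transcripts, so the true number of fragments is not known.

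NEAT1 (ENSG00000245532.8, chromosome 11, 65422774 to 65445540, plus strand), which ends 52.1 kb before MALAT1 begins, stood at 18.6 FPKM in sgTPST2 and at 21.1 FPKM in sgGFP. It was 0.885 times as high in sgTPST2, a log2 difference of -0.17, opposite in sign to that of MALAT1. The ratio of MALAT1 to NEAT1 in FPKM was 25.9 in sgTPST2 and 19.5 in sgGFP. The counting interval of the NEAT1 ratio is 0.868 to 0.903 with the longest transcript (22743 bases) and 0.75 to 1.04 with the shortest (512 bases), so the difference exceeds counting error under the first and not under the second. The deposited value is per gene, and it does not separate the short, polyadenylated NEAT1 isoform from the long isoform that builds paraspeckles.

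Of 24 paraspeckle protein genes measured at 1 FPKM or more, 0 were 1.5-fold apart, beside 11.3% of all genes at that level, and their median difference was -0.05 beside 0.00 for all genes. That share of all genes, 4.41% higher and 6.94% lower, is also the background of the counts for the gene lists that follow, which are short, so counts of 0 or 1 say little about a list. The core factors that bind NEAT1 were high in both: NONO stood at 450.1 FPKM in sgTPST2 and 423 FPKM in sgGFP, and SFPQ at 289.7 FPKM in sgTPST2 and 317 FPKM in sgGFP. The lowest difference was that of the RNA-binding protein gene RBM4B, at 8.40 FPKM in sgTPST2 and 10.1 FPKM in sgGFP. HNRNPA1, a splicing regulator, stood at 126 FPKM in sgTPST2 and 144 FPKM in sgGFP, a difference of -0.19. CPSF6, a 3′-end processing factor, stood at 47.2 FPKM in sgTPST2 and 53.6 FPKM in sgGFP. RBM14, needed to assemble paraspeckles, stood at 30.6 FPKM in sgTPST2 and 34.2 FPKM in sgGFP.

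All 23 nuclear speckle genes, most of them splicing factors and their kinases, also lay within 1.5-fold (median -0.02). CLK1, a kinase that phosphorylates splicing factors, had the lowest difference, -0.33, at 30.5 FPKM in sgTPST2 and 38.5 FPKM in sgGFP. RBM25 was at 35.3 FPKM in sgTPST2 and 41.1 FPKM in sgGFP, and PNN at 49.5 FPKM in sgTPST2 and 57.2 FPKM in sgGFP. The splicing coactivator gene SRRM1 was at 15.2 FPKM in sgTPST2 and 13.3 FPKM in sgGFP, the highest difference of that list, 0.19.

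Enzymes that cut the 3′ ends of MALAT1 and NEAT1 were measured as well. Of 11 genes of RNase P, which makes the cut, and RNase Z, which trims the tRNA-like piece, 0 were 1.5-fold apart (median 0.05). The RNase P subunit RPP30 stood at 38.4 FPKM in sgTPST2 and 27.2 FPKM in sgGFP, a difference of 0.49. RPP40 stood at 38.7 FPKM in sgTPST2 and 29.8 FPKM in sgGFP, and POP4 at 146.7 FPKM in sgTPST2 and 115 FPKM in sgGFP. RPP38, another subunit, went the other way, at 21.3 FPKM in sgTPST2 and 24.4 FPKM in sgGFP. The RNA subunit RPPH1 was at 51919 FPKM in sgTPST2 and 39626 FPKM in sgGFP; it is a short RNA, and near the fragment length FPKM depends strongly on the length correction.

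Of 17 genes of the nuclear exosome, which degrades nuclear RNA, and its adaptors, 0 were 1.5-fold apart (median -0.02). EXOSC1 stood at 56.9 FPKM in sgTPST2 and 42.2 FPKM in sgGFP, and EXOSC8 at 75.8 FPKM in sgTPST2 and 61.1 FPKM in sgGFP. Both are subunits of the exosome core. The adaptor RBM7 was at 14.8 FPKM in sgTPST2 and 16.9 FPKM in sgGFP, and the catalytic subunit DIS3 at 25.2 FPKM in sgTPST2 and 28.2 FPKM in sgGFP.

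**Figure D3:**
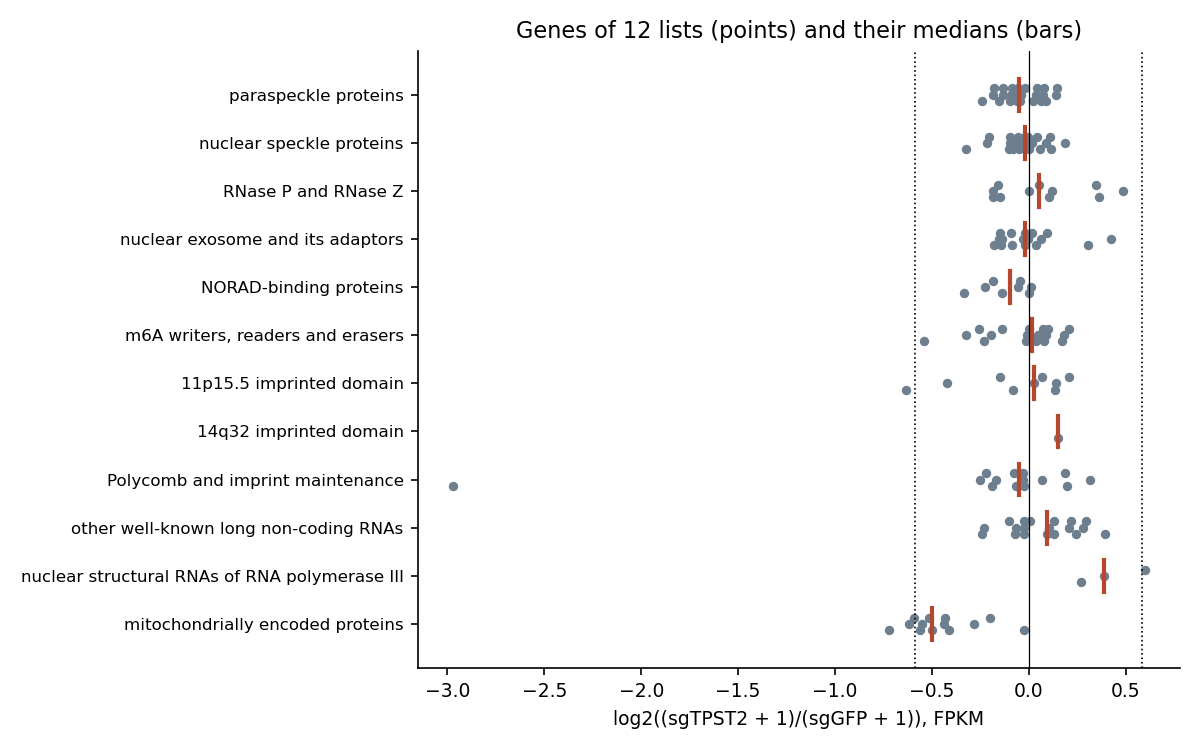
Log2 difference, sgTPST2 over sgGFP on the log2(FPKM + 1) scale, of each gene at 1 FPKM or more in 12 lists (points, spread vertically for legibility), with the list median as a red bar and dotted lines at 1.5-fold. Medians lie between -0.10 and 0.15 except for the RNA polymerase III transcripts, at 0.39, and the genes of mitochondrially encoded proteins, at -0.50.

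NORAD (ENSG00000260032.1, chromosome 20, 36045622 to 36050960, minus strand) was nearly level between the libraries. It stood at 53.1 FPKM in sgTPST2 and at 54.4 FPKM in sgGFP, a difference of -0.04 and a ratio of 0.976. With a single annotated transcript its fragments can be estimated, at 13103 in sgTPST2 and 11795 in sgGFP, and the counting interval of the ratio, 0.951 to 1.0002, reached 1 at its upper edge. NORAD ranked 33 among long non-coding RNA genes in sgTPST2 and 32 in sgGFP.

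The 8 genes that encode NORAD-binding proteins all lay within 1.5-fold (median -0.10). PUM2, a PUMILIO protein gene, stood at 19.8 FPKM in sgTPST2 and 20.6 FPKM in sgGFP. RBMX, an RNA-binding protein reported to work with NORAD in genome stability, was at 296 FPKM in sgTPST2 and 294 FPKM in sgGFP. The DNA topoisomerase gene TOP1 had the lowest difference of the list, -0.33, at 21.0 FPKM in sgTPST2 and 26.7 FPKM in sgGFP. PRPF19, a splicing and DNA-damage factor, was at 22.9 FPKM in sgTPST2 and 27.0 FPKM in sgGFP, and the RNA export factor ALYREF at 129 FPKM in sgTPST2 and 143 FPKM in sgGFP.

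OIP5-AS1 (ENSG00000247556.6, chromosome 15, 41283990 to 41309737, plus strand) was level, at 30.1 FPKM in sgTPST2 and 29.96 FPKM in sgGFP. Its difference was 0.01, and 97.5% of all genes at 1 FPKM or more differed by at least as much. The counting interval of its ratio is 0.98 to 1.03 with the longest transcript and 0.871 to 1.16 with the shortest. It shares 470 exonic bases with OIP5 on the opposite strand, a centromere factor gene that stood at 18.2 FPKM in sgTPST2 and 21.9 FPKM in sgGFP. The library kit keeps strand, but the strand setting used in counting is unknown here, so fragments of the shared bases may be assigned to either gene.

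TUG1 (ENSG00000253352.9, chromosome 22, 30969245 to 30979395, plus strand) stood at 16.4 FPKM in sgTPST2 and at 15.3 FPKM in sgGFP. It was 1.07-fold higher in sgTPST2, a difference of 0.09, and 70.6% of all genes differed by at least as much. The counting interval of the ratio is 1.03 to 1.11 with the longest transcript and 0.843 to 1.37 with the shortest. MORC2, a chromatin silencing factor gene that starts 946 bases away and points the other way, was at 9.99 FPKM in sgTPST2 and 8.96 FPKM in sgGFP.

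H19 (ENSG00000130600.18, chromosome 11, 1995176 to 2001470, minus strand) was expressed at a low level that did not differ beyond counting error. It stood at 5.27 FPKM in sgTPST2 and at 5.24 FPKM in sgGFP, with about 547 fragments in sgTPST2 and 477 in sgGFP over its longest transcript. The counting interval of the ratio is 0.889 to 1.14. IGF2, the growth factor gene that shares enhancers with H19 and is normally active on the other parental copy, was at 0.0632 FPKM in sgTPST2 and 0.0286 FPKM in sgGFP. H19 was thus measured in cells with almost no IGF2 RNA, in both libraries.

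KCNQ1OT1 (ENSG00000269821.1, chromosome 11, 2608328 to 2699994, minus strand) is low per length yet rests on many fragments, because it is annotated as 1 exon of 91667 bases. It stood at 0.290 FPKM in sgTPST2 and at 0.253 FPKM in sgGFP. These values stand for about 1272 fragments in sgTPST2 and 971 in sgGFP, more than H19 has in either library. On the log2(FPKM + 1) scale the difference is 0.04, while the plain ratio is 1.15 with a counting interval of 1.06 to 1.25. The gap thus exceeds counting error, and in the authors' deposited table it has p = 0.63985.

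**Figure D4:**
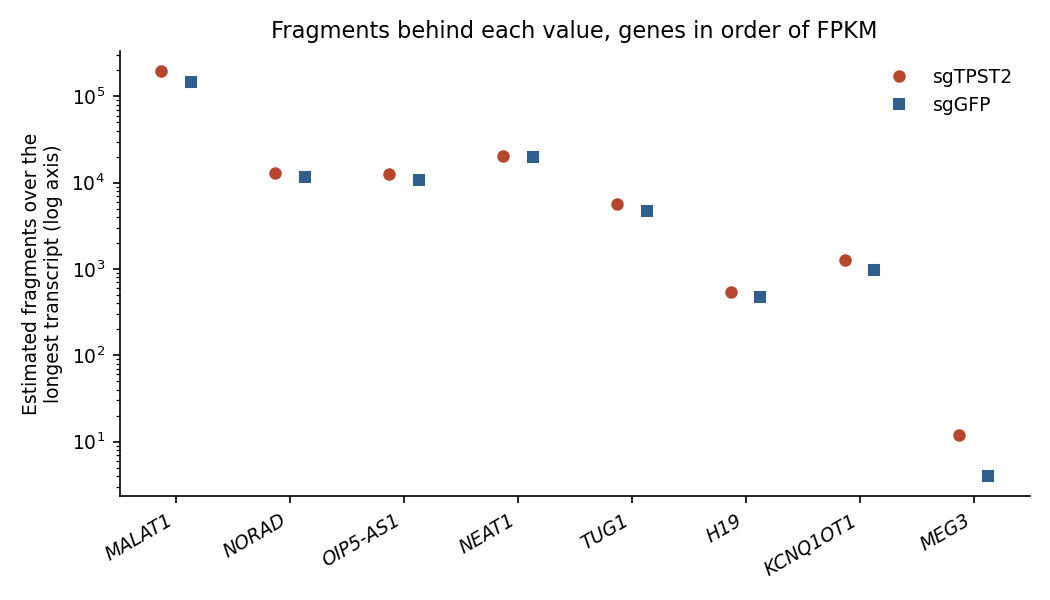
Estimated fragments behind each value, taken over the longest annotated transcript, on a log axis, with sgTPST2 (red circles) left of sgGFP (blue squares) and the genes in their order of FPKM. KCNQ1OT1, with 1272 fragments in sgTPST2 and 971 in sgGFP, stands above H19, with 547 in sgTPST2 and 477 in sgGFP, although its FPKM are lower.

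KCNQ1OT1 lies within KCNQ1, a potassium channel gene on the opposite strand, and the exons of the 2 genes share 121 bases. KCNQ1 stood at 0.837 FPKM in sgTPST2 and at 1.46 FPKM in sgGFP, a difference of -0.42, opposite in sign to KCNQ1OT1. Fragments from KCNQ1 introns would fall on the KCNQ1OT1 exon if strand was not used in counting. RF01950, a 226-base stretch annotated on the KCNQ1 strand inside KCNQ1OT1, was at 0.375 FPKM in sgTPST2 and 1.11 FPKM in sgGFP. It is little longer than the offset of 180 bases used to estimate fragments, so very few fragments stand behind these 2 values.

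The genes of the imprinted domain around KCNQ1OT1 and H19 (11p15.5) included many at low levels. Of 17 genes, 8 stayed under 1 FPKM in both libraries. Of the other 9, 0 were 1.5-fold higher and 1 lower, beside 4.41% higher and 6.94% lower of all genes, with a median of 0.03. The lower one, PHLDA2, a growth-restraining placental gene named after its values were seen, stood at 0.317 FPKM in sgTPST2 and 1.05 FPKM in sgGFP. CDKN1C, a cell-cycle inhibitor gene that the mouse counterpart of KCNQ1OT1 silences in cis, was at 0.285 FPKM in sgTPST2 and 0.282 FPKM in sgGFP. The lipid-transfer protein gene OSBPL5 was at 6.50 FPKM in sgTPST2 and 5.48 FPKM in sgGFP, the mitochondrial ribosome gene MRPL23 at 36.7 FPKM in sgTPST2 and 40.7 FPKM in sgGFP, CARS, a tRNA synthetase gene, at 15.2 FPKM in sgTPST2 and 13.7 FPKM in sgGFP, and the tetraspanin gene CD81 at 41.6 FPKM in sgTPST2 and 44.0 FPKM in sgGFP.

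MEG3 (ENSG00000214548.16, chromosome 14, 100779410 to 100861031, plus strand) was close to undetected. It stood at 0.0193 FPKM in sgTPST2 and at 0.00741 FPKM in sgGFP, and the authors' deposited table did not test it. Over its longest transcript of 12990 bases these values stand for about 12 fragments in sgTPST2 and 4 in sgGFP. The ratio of 2.60 has a counting interval of 0.798 to 11.2, so no difference was detectable at this depth. The rest of its imprinted domain on 14q32 was also low: 6 of 7 genes stayed under 1 FPKM, with DLK1, a growth regulator, at 0.606 FPKM in sgTPST2 and 0.477 FPKM in sgGFP. MEG8, a non-coding RNA gene downstream of MEG3, was at 0.0649 FPKM in sgTPST2 and 0.404 FPKM in sgGFP. BEGAIN, at the edge of the domain, was the exception, at 39.5 FPKM in sgTPST2 and 35.4 FPKM in sgGFP.

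Genes of silencing complexes with which these RNAs have been linked were also measured. Of 14 Polycomb and imprint maintenance genes, 0 were 1.5-fold higher and 1 lower, a share near the 6.94% of all genes that were lower (median -0.05). EHMT1, a histone H3 lysine methyltransferase gene, was at 26.4 FPKM in sgTPST2 and 214 FPKM in sgGFP, with q = 0.99965 in the authors' deposited table. Its partner EHMT2 was at 13.97 FPKM in sgTPST2 and 16.5 FPKM in sgGFP. The Polycomb subunit EED was at 15.9 FPKM in sgTPST2 and 12.6 FPKM in sgGFP, and the histone-binding subunit RBBP4 at 94.7 FPKM in sgTPST2 and 82.4 FPKM in sgGFP.

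Of 18 genes that write, read or erase m6A, a base modification found on MALAT1 among other RNAs, 0 were 1.5-fold apart on the log2(FPKM + 1) scale (median 0.02). METTL14, a subunit of the writer, stood at 6.89 FPKM in sgTPST2 and 10.5 FPKM in sgGFP, a difference of -0.54 on that scale; its plain ratio of 0.659 is past 1.5-fold. METTL16, which binds the triple helix of MALAT1, was at 10.2 FPKM in sgTPST2 and 12.4 FPKM in sgGFP. The readers IGF2BP3, at 129.7 FPKM in sgTPST2 and 162 FPKM in sgGFP, and HNRNPA2B1, at 109 FPKM in sgTPST2 and 128 FPKM in sgGFP, were also lower in sgTPST2.

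The nearest protein-coding genes on each side of the 8 loci, 14 genes in all, held 1 that was 1.5-fold higher and 1 that was 1.5-fold lower, both beside NORAD. Over all genes 4.41% were higher and 6.94% lower, so counts of 1 and 1 among 14 are near the background. EPB41L1, a cytoskeletal linker gene 40.5 kb from NORAD, stood at 3.89 FPKM in sgTPST2 and 1.58 FPKM in sgGFP. CNBD2, 14.9 kb away on the other side, stood at 4.16 FPKM in sgTPST2 and 7.36 FPKM in sgGFP. NORAD lay between them with a difference of -0.04. SMTN, a smooth muscle gene next to TUG1, was at 16.5 FPKM in sgTPST2 and 11.2 FPKM in sgGFP, a difference of 0.52.

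FRMD8 is the nearest protein-coding gene before the NEAT1 and MALAT1 pair. It stood at 22.7 FPKM in sgTPST2 and 18.9 FPKM in sgGFP, a difference of 0.25. Within 1 Mb of MALAT1, 59 protein-coding genes had a median of 0.04, with 0 genes 1.5-fold higher and 3 lower. Over the 8 loci such medians ran from -0.07 around OIP5-AS1 to 0.15 around MEG3, where 7 genes were counted.

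**Figure D5:**
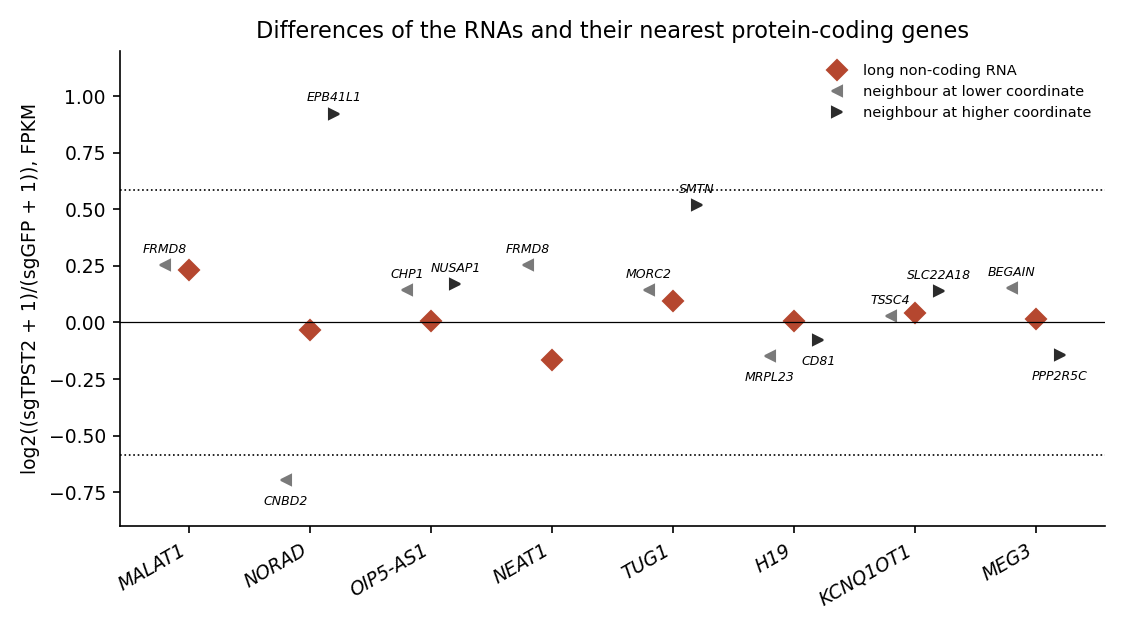
Log2 difference, sgTPST2 over sgGFP on the log2(FPKM + 1) scale, of each RNA (red diamonds) and of the nearest protein-coding gene at 1 FPKM or more on each side (triangles pointing to lower or higher coordinates, higher ones not drawn for MALAT1 and NEAT1); dotted lines mark 1.5-fold. EPB41L1 at 0.92 and CNBD2 at -0.69, on either side of NORAD, are the 2 neighbours past 1.5-fold.

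Measures of RNA composition differed between the libraries, mostly by less than 1.5-fold. Within 1.5-fold were 10 of 13 genes of mitochondrially encoded proteins and 2 of 3 structural RNAs of RNA polymerase III, as were the 6 RNAs at 1 FPKM or more. The RNAs of all 13 mitochondrial genes were lower in sgTPST2, 3 of them by 1.5-fold, with a median of -0.50. MT-ATP8 was nearly level, at 31.8 FPKM in sgTPST2 and 32.4 FPKM in sgGFP. MT-ND1 was at 13.9 FPKM in sgTPST2 and 23.7 FPKM in sgGFP, MT-ND2 at 9.25 FPKM in sgTPST2 and 14.7 FPKM in sgGFP, MT-CO1 at 234 FPKM in sgTPST2 and 353 FPKM in sgGFP, and MT-CO2 at 143 FPKM in sgTPST2 and 212 FPKM in sgGFP. All 3 structural RNAs of RNA polymerase III were higher in sgTPST2, 1 of them by 1.5-fold, with RN7SK, a nuclear regulator of transcription elongation, at 120792 FPKM in sgTPST2 and 100268 FPKM in sgGFP. RMRP, the RNA of a ribonuclease that processes ribosomal RNA, is listed under 2 entries at 1 locus that may split reads, the higher at 72883 FPKM in sgTPST2 and 48069 FPKM in sgGFP. As for RPPH1, the FPKM of these short RNAs depends strongly on the length correction. MALAT1, at 0.23, differed in the same direction as these nuclear RNAs, and NEAT1, at -0.17, in the opposite one; the part of RNA composition in either was not tested.

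Markers were checked for the label of the cells. The 5 epithelial markers summed to 139.8 FPKM in sgTPST2 and 1282 FPKM in sgGFP. All keratins among them were far lower in sgTPST2. KRT8 stood at 41.6 FPKM in sgTPST2 and 510 FPKM in sgGFP, and KRT18 at 85.3 FPKM in sgTPST2 and 583 FPKM in sgGFP. KRT19 stood at 12.8 FPKM in sgTPST2 and 189 FPKM in sgGFP. EPCAM is listed at 0 in both libraries, and CDH1 was at 0.0524 FPKM in sgTPST2 and 0 in sgGFP. Acinar and islet markers (3 each) are all listed at 0. Summed levels were 1.51 FPKM in sgTPST2 and 3.49 FPKM in sgGFP for 4 leukocyte markers, 0.282 FPKM in sgTPST2 and 3.10 FPKM in sgGFP for 3 endothelial markers, and 0.220 FPKM in sgTPST2 and 0.0450 FPKM in sgGFP for 4 fibroblast markers. CD68 made up nearly all of the leukocyte sum, at 1.51 FPKM in sgTPST2 and 3.32 FPKM in sgGFP. CDH5 made up nearly all of the endothelial sum, at 0.277 FPKM in sgTPST2 and 2.93 FPKM in sgGFP. CD3E and PECAM1 are listed at 0 in both libraries, and PTPRC, LYZ and VWF reached at most 0.176 FPKM in either. The part of all these markers in the values of the 8 RNAs was not tested. In RNA from a whole culture, fewer cells with a transcript and less of it per cell cannot be told apart.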

How the data were processed

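The labels' protocols name a column kit for RNA and a stranded kit for total RNA. The submitters' processing notes name STAR, Cuffdiff and build hg38, but no versions, annotation release or strand setting. The deposited table gives 1 value per gene and library, taken as FPKM because Cuffdiff reports that unit (the header names none), with the authors' test statistic (a score), p-value, q-value and log2 fold change. That log2 fold change equals log2((sgTPST2 + 1)/(sgGFP + 1)) to within 2.1e-15. All 58698 gene identifiers matched GENCODE release 29 (GRCh38), the source of coordinates and transcripts; microRNAs are from RefSeq.

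Depth was read from low values of single-transcript genes over 1500 bases, which fell on steps of 0.0209 FPKM in sgTPST2 and 0.0238 FPKM in sgGFP for a length of 1 kb, after a length offset of 180 bases. Of such values of up to 6 fragments, 93.0% of 776 in sgTPST2 and 91.5% of 837 in sgGFP lay within 0.1 of a whole number. A value of 1 FPKM then stands for 47.8 fragments per kb in sgTPST2 and 42.0 in sgGFP. Intervals are exact Poisson or binomial at 95% and cover counting error only. The fit was also run on simulated counts of single-transcript genes, made with the kind of steps and offset that it looks for. That run could not check the fragments of genes with several transcripts. Python 3.11.15, scipy 1.17.1 and Biopython 1.88 were used.

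The RNAs, the 12 gene lists and the counts were chosen with earlier results of these data known. Genes of lists were named by size: the 4 that differed most in either direction, counting only genes that reached 5 FPKM. Other genes named, such as NONO, SFPQ, PUM2, RBMX, IGF2, CDKN1C, DLK1 and MEG8, were picked for their roles, with values in view. The nearest protein-coding gene at 1 FPKM or more on each side was named as a neighbour. Where a symbol has several entries, that with the higher mean was used. MPP6 was taken out of the exosome list, since the symbol belongs to another gene. A few genes named by these rules are not reported here. No gene was sought for a pattern like that of a member, since 2 libraries give 1 difference per gene. Alternatives tried were another pseudocount, 3 rescalings, other filters, genes listed at 0 left out, summed entries and shorter transcripts.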

Additional observations from a re-analysis of the deposited data

How the results depend on the processing

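No paired analysis was possible because there is 1 library per condition, which also leaves no replicate to omit. A common upper quartile, a median difference of 0 and summed entries of repeated symbols moved none of the differences, counts and medians compared past its bound (counting interval, 1.5 times or 0.1). With the same sum, MALAT1 moved to 0.24. A pseudocount of 0.1 gave 0.15 for KCNQ1OT1 and 0.15 for MEG3, since both lie under 1 FPKM, and 928 genes 1.5-fold higher, 402 genes 2-fold higher and 651 genes 2-fold lower (592, 216 and 393 with a pseudocount of 1). With a filter of 5 FPKM, 326 and 524 genes were 1.5-fold higher and lower and 127 and 241 were 2-fold higher and lower. Without genes listed at 0, 139 were 2-fold higher. Without a filter the 14q32 median was 0.00 over 7 genes, against 0.15 from BEGAIN alone.

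Depth limits MEG3 most. If only the shortest annotated transcript were present, the fragments in sgTPST2 and sgGFP would be 296 and 294 for NEAT1, 0 in both for MEG3, 74 and 65 for H19, 422 and 369 for OIP5-AS1, and 153 and 125 for TUG1. The 0 of MEG3 is a rounded number, while its values are above 0 FPKM, so that alternative cannot hold for MEG3. For MALAT1 it gave no value, since the shortest transcript is shorter than the length offset.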

Other observations

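Some other long non-coding RNAs, picked here by the size of their difference, differed far more than the 8 described. Among 1400 long non-coding RNA genes at 1 FPKM or more, 15.9% were past 1.5-fold in either direction. A difference at least as large as that of MALAT1 was seen in 48.9% of them. Among 171 others with status OK, at least 5 FPKM and a symbol that is not clone-based, the difference was most positive for SNHG25, a small nucleolar RNA host gene, at 199.7 FPKM in sgTPST2 and 15.8 FPKM in sgGFP. C7orf69 stood at 15.2 FPKM in sgTPST2 and 4.38 FPKM in sgGFP, LINC00457 at 20.6 FPKM in sgTPST2 and 10.9 FPKM in sgGFP, and TUBA3FP at 16.0 FPKM in sgTPST2 and 9.42 FPKM in sgGFP. The second RMRP entry, at 4043 FPKM in sgTPST2 and 2559 FPKM in sgGFP, and SLC9A3-AS1, at 34.7 FPKM in sgTPST2 and 21.7 FPKM in sgGFP, completed the 6 most positive differences, all with q = 0.99965 in the authors' deposited table.

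Of the 6 most negative differences, 4 are given. ARHGAP5-AS1 was at 0.438 FPKM in sgTPST2 and 8.62 FPKM in sgGFP, LNCAROD at 0.632 FPKM in sgTPST2 and 9.87 FPKM in sgGFP, NR2F1-AS1 at 2.21 FPKM in sgTPST2 and 16.6 FPKM in sgGFP, and SH3TC2-DT at 1.67 FPKM in sgTPST2 and 12.4 FPKM in sgGFP. In the authors' deposited table LNCAROD has q = 0.0332 and SH3TC2-DT q = 0.0126, while ARHGAP5-AS1 and NR2F1-AS1 have q = 0.99965.

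Among 19 well-known long non-coding RNAs outside the set at 1 FPKM or more, 0 were 1.5-fold apart, beside 11.3% of all genes. Their median was 0.09, but 0.01 where entries of a repeated symbol were summed and 0.01 over all 25 without a filter. HOTAIRM1, transcribed from the HOXA cluster, was at 6.20 FPKM in sgTPST2 and 4.48 FPKM in sgGFP. NUTM2B-AS1 was at 12.4 FPKM in sgTPST2 and 9.93 FPKM in sgGFP, DLEU2, a host of microRNAs, at 26.7 FPKM in sgTPST2 and 21.8 FPKM in sgGFP, and LINC00667 at 17.8 FPKM in sgTPST2 and 14.9 FPKM in sgGFP.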
